A study of Jaculus jaculus with 29 samples.

Results

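The genes described here serve the unfolded protein response and protein folding in the endoplasmic reticulum (ER): chaperones, cochaperones, disulfide and prolyl isomerases, stress sensors, and factors of ER-associated degradation. A list of 40 symbols was matched, in any case, to the gene names of the authors' deposited Dehydrated table and joined by gene identifier to the count table of 29170 genes, which gave 30 members. Another 9 symbols (Hyou1, Xbp1, Pdia3, Manf, Dnajb9, Ern1, Selenos, Ero1b and Fkbp2) had no name there and were found through RefSeq's gene table of the assembly the counts use, mJacJac1. They are given beside the 30 and counted apart from them. Ufm1, a ubiquitin-like modifier, matched no gene. All 39 genes passed the filter on low counts.

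Secretory proteins fold in the ER with the help of chaperones and of enzymes that form disulfide bonds or turn proline bonds. When unfolded protein accumulates there, the sensors IRE1 (gene Ern1), PERK (Eif2ak3) and ATF6 signal to the nucleus, and the transcription factors XBP1, ATF4 and cleaved ATF6 raise chaperone and degradation genes. Magnocellular neurons of the supraoptic nucleus make large amounts of vasopressin and oxytocin precursor in the ER, and mutant vasopressin precursor that cannot fold is a known cause of inherited diabetes insipidus.

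The animals were lesser Egyptian jerboas (Jaculus jaculus), desert rodents, and polyA RNA from punches of the supraoptic nucleus was measured in 29 libraries. Control animals (10 libraries, 5 female and 5 male by label) drank freely. Dehydrated animals (10 libraries, 6 female and 4 male) were under water restriction for 11 days, and Rehydrated animals (9 libraries, 4 female and 5 male) had 7 such days followed by 3 days with water. All groups lived singly with dry food, and the labels name no genetic change, strain or age. In punched tissue, fewer cells of a type and less RNA per cell cannot be told apart.

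Depth ran from 10797577 counts (Control M01) to 18856620 (Dehydrated F04). Of the libraries, Control M01 stood apart from all others on the first principal component, which held 21.7% of the variance, and where leaving it out turned or clearly changed a described difference, the value without it is given too. All 12 magnocellular markers were found, and none was at 0 in all 29 libraries. Avp, the vasopressin precursor, was lowest in Rehydrated M08 at 201 CPM (counts scaled to library size, with TMM factors). Nothing in the labels says that libraries of 1 group share an animal, and each was taken as 1 animal. Because 3 libraries carry a sex label unlike the letter of their name, the label was used.

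In Control animals the large chaperones and lectins were the most abundant members and the stress sensors among the least. Per kilobase of exon, the median level was 217 CPM for Hsp90b1 (GRP94, an HSP90 chaperone of the ER), 209 for Canx (calnexin, a lectin that holds glycoproteins during folding) and 179 for Hspa5 (BiP, the main HSP70 chaperone of the ER). These levels were above those of 98.7%, 98.6% and 98.3% of the 17558 tested genes. Os9, a lectin that passes misfolded glycoproteins to degradation, followed at 97.3 and Pdia3, a disulfide isomerase of the calnexin cycle, at 86.7. At the low end, Fkbp11, a membrane-bound prolyl isomerase of secretory cells, stood at 6.36, the 37th of the 39 and above 37.6% of tested genes. Below it were Ern1 at 3.26 and Derl3, a channel component of ER-associated degradation, at 2.64. The ranges overlapped in 36 of the 38 pairs of neighbours in this order. Both genes of a pair come from the same libraries, and their order within each library was not compared, so overlap does not decide whether neighbours differed. Among the first 3, Hsp90b1 spanned 192 to 305, Canx 136 to 233 and Hspa5 152 to 241 CPM per kilobase. Control M01 was the lowest library for Canx and the highest for Hsp90b1 and Hspa5. The 2 pairs that did not overlap were Hspa5 above Os9 (84.5 to 123) and Fkbp11 (4.97 to 8.73) above Ern1 (1.07 to 4.52).

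**Figure D1:**
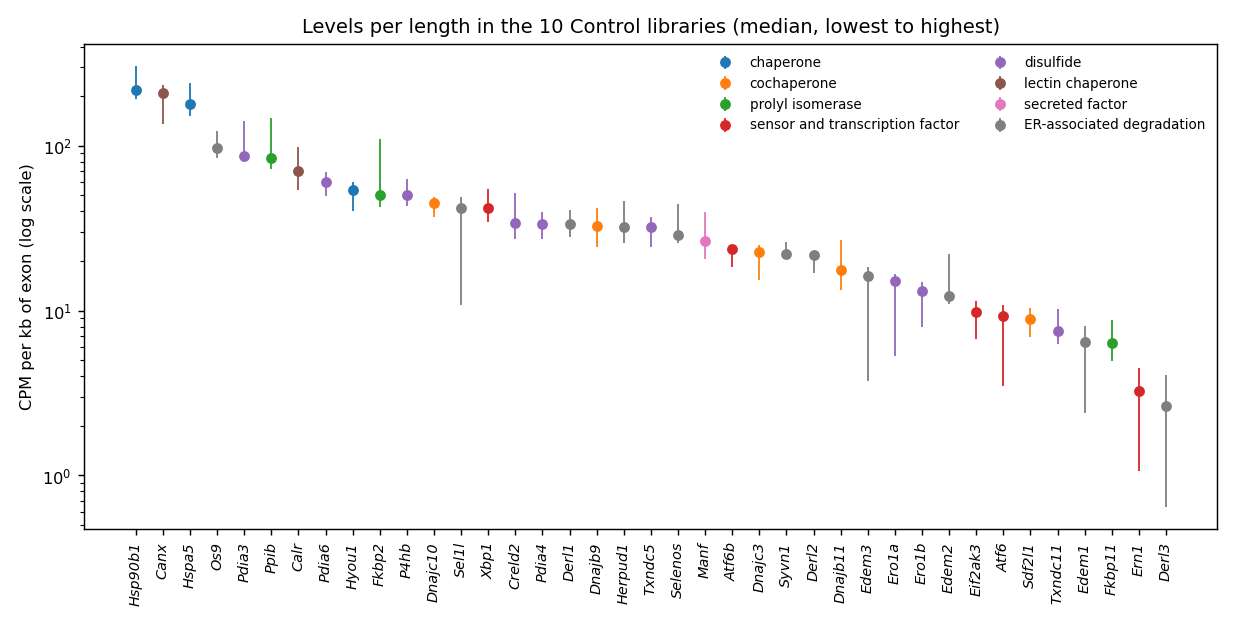
Level of each of the 39 genes in the 10 Control libraries, in CPM per kilobase of exon on a log axis, with the median as a point and the lowest and highest library as a line. Hsp90b1 (217), Canx (209) and Hspa5 (179) lead, Fkbp11 (6.36) is the 37th, and the ranges overlap in 36 of 38 pairs of neighbours.

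Fkbp11 was the only member called higher in the dehydrated animals. In Dehydrated against Control, 1 of the 30 members passed the threshold, beside 0.125% of all tested genes (22 of 17558), by the quasi-likelihood test of edgeR at a Benjamini-Hochberg adjusted p of 0.05. None of the 9 genes named from RefSeq passed, 2 of them having an unadjusted p below 0.05, and DESeq2 also called 0 of them. Fkbp11 (ENSJJAG00000019024) lies on the minus strand of chromosome 6 of mJacJac1, from 91386323 to 91390490, with 785 bases of exon.

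Fkbp11 stood at 3.90 CPM in the lowest Control library (F06), 4.99 at the median and 6.85 in the highest (M01). In the Dehydrated libraries it stood at 5.78 (F07), 8.89 and 11.6 (F06), and in the Rehydrated ones at 4.74 (M08), 6.10 and 7.91 (F05). All 10 Dehydrated libraries lay above the Control median and 8 above the highest Control library, while F03 at 5.89 and F07 overlapped the Control range. Of the Rehydrated libraries, 8 of 9 lay above the Control median and 1 above the highest Control library. Control averaged 5.13 ± 0.957 CPM (SD, n = 10), Dehydrated 8.73 ± 1.93 (SD, n = 10) and Rehydrated 6.20 ± 0.846 (SD, n = 9). The rise with dehydration was 1.71-fold, with a 95% interval of 1.42 to 2.06, or 0.77 ± 0.13 (SE) on the log2 scale, with an adjusted p of 0.00517 from edgeR's quasi-likelihood test.

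The call was kept without Control M01 and lost under 3 other alternatives. Without that library the highest Control value was 6.03 CPM, the difference was 0.82 on the log2 scale and edgeR's adjusted p was 0.00428. The authors' deposited DESeq2 table put Fkbp11 at 0.82 ± 0.13 (their SE) on the log2 scale, adjusted p 4.78e-06, and Fkbp11 was the only one of the 39 genes with an adjusted p under 0.05 there. That table holds per-library values in 28 columns, against 29 libraries in the counts. Its difference of 0.8246 was that of DESeq2 without Control M01 here (0.8246), not that with all libraries (0.7777). It rests on the same libraries and adds no independent data. With a replicate block the difference was 0.95 and the adjusted p 0.0527, in females alone 0.87 and 0.665, and in males alone 0.68 and 0.438, so the call was lost in each.

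Within each letter of the library names, a split made after the data had been seen, the same libraries gave the following ranges, which add no independent support. Among libraries named F the Dehydrated values ran from 5.78 to 11.6 CPM and the Control values from 3.90 to 5.01, and among those named M from 7.82 to 10.01 and from 3.93 to 6.85. Neither pair of ranges overlapped, and an exact two-sided permutation test gave p = 0.00794 in each, the smallest p that 5 against 5 allows (adjusted p = 0.0139 over 8 such tests). By sex label in place of the letter, the same test gave p = 0.00866 in females (adjusted p = 0.0139) and 0.0159 in males (adjusted p = 0.0212).

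After rehydration Fkbp11 lay between the other groups. Rehydrated against Dehydrated gave -0.50 ± 0.13 (SE) on the log2 scale, with a 95% interval of -0.78 to -0.22 and an unadjusted p of 0.000828, but an adjusted p of 0.605 from edgeR's quasi-likelihood test. Rehydrated against Control gave 0.27, with an interval of -0.0033 to 0.55 and an adjusted p of 0.665, and 0.33 without Control M01 (adjusted p = 0.551). Both comparisons missed the threshold, so a return to the Control level and a remaining difference were both within these intervals. Among libraries named M, the Rehydrated values (4.74 to 6.64 CPM) lay wholly below the Dehydrated ones (7.82 to 10.01), with an exact permutation p of 0.00794 (adjusted p = 0.0139). Among those named F the ranges overlapped, 5.74 to 7.91 against 5.78 to 11.6, with an exact permutation p of 0.183. By sex label the exact permutation p was 0.129 in females and 0.00794 in males. These splits were made after the data had been seen. Fkbp11 was singled out by its Dehydrated values and the same Dehydrated libraries enter here, so these p add no independent support for a fall.

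**Figure D2:**
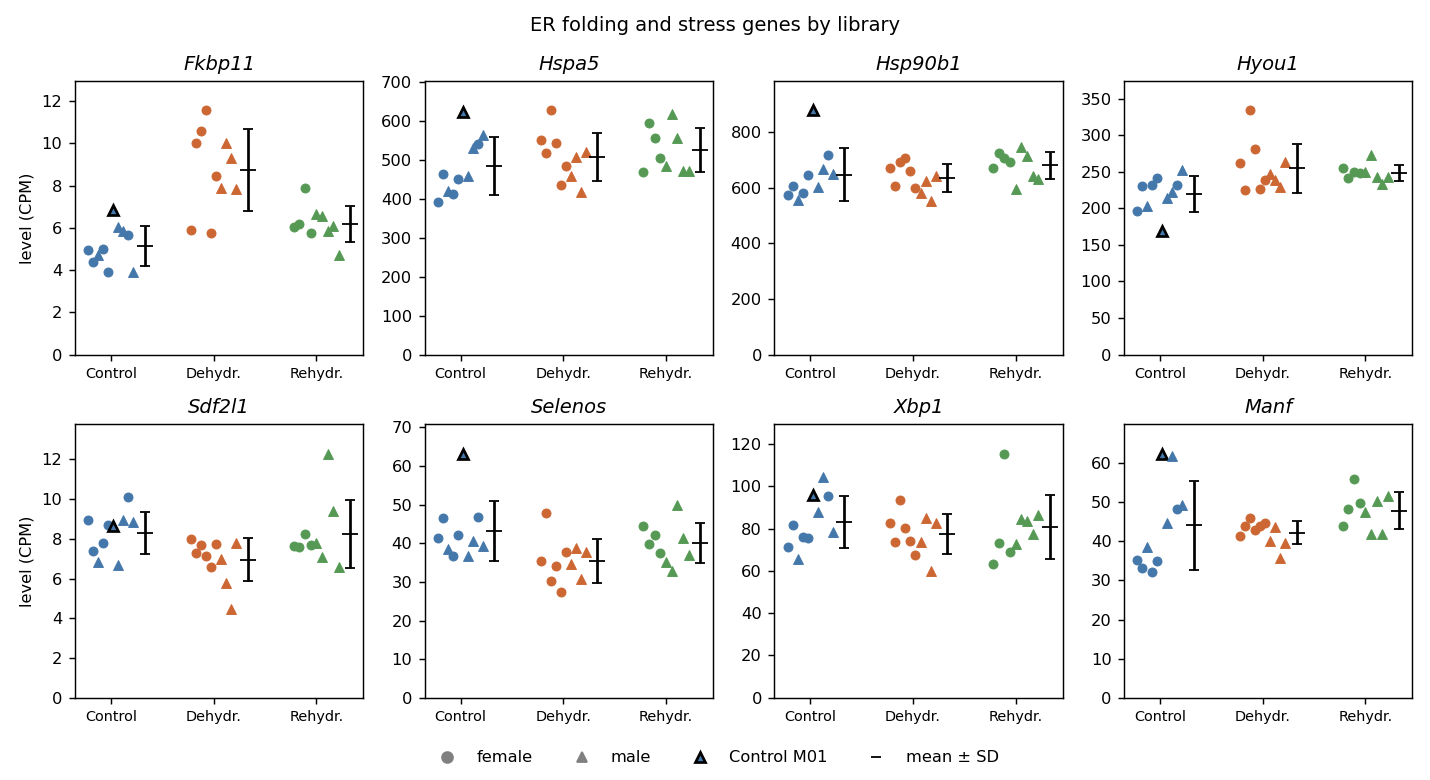
Level of 8 genes (CPM, linear axes that differ between panels) in each Control, Dehydrated and Rehydrated library, with circles for females, triangles for males, Control M01 outlined in black, and a bar for mean ± SD. Fkbp11 is above the Control median in 10 of 10 Dehydrated libraries, while the groups overlap widely for Hspa5, Hsp90b1, Xbp1 and Manf.

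The large chaperones did not pass the test in any comparison. Hspa5 (ENSJJAG00000023256, chromosome 1, 128277382 to 128282237, plus strand) had 393 CPM in the lowest, 462 in the median and 623 in the highest Control library, the last being M01. It had 419, 514 and 628 CPM in the Dehydrated libraries and 470, 506 and 620 in the Rehydrated ones (lowest, median and highest). The groups overlapped, although all 9 Rehydrated libraries lay above the Control median. Dehydrated against Control gave 0.06 ± 0.08 (SE) on the log2 scale, with a 95% interval of -0.11 to 0.23 and an adjusted p of 0.869 in edgeR, and 0.11 without Control M01 (adjusted p = 0.941). An interval of that width leaves room for modest differences in either direction and not for one of the size seen in Fkbp11.

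Hsp90b1 ranged from 555 to 879 CPM in Control (median 626), from 552 to 707 in Dehydrated (635) and from 597 to 748 in Rehydrated (693). Its highest Control value was again M01, and the next highest was 718. The difference of Dehydrated from Control was -0.04, with an interval of -0.17 to 0.10, and 0.03 without Control M01. Without that library, Rehydrated against Control reached 0.14 on the log2 scale, with an adjusted p of 0.535 in edgeR.

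Hyou1, a large HSP70-like partner that exchanges nucleotide on BiP, had the smallest p among the genes named from RefSeq and was chosen for that after its values were seen. Its levels were 169 (M01), 226 and 253 CPM in the lowest, median and highest Control library, 225, 243 and 334 (F05) in Dehydrated, and 233, 249 and 273 in Rehydrated. All 9 Rehydrated and 8 of 10 Dehydrated libraries lay above the Control median. The difference was 0.21 ± 0.07 (SE) on the log2 scale in Dehydrated (interval 0.07 to 0.35) and 0.19 ± 0.07 in Rehydrated, with adjusted p of 0.508 and 0.581 from edgeR. Without Control M01 these became 0.18 and 0.15, and neither passed.

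The cochaperones, which set the pace of BiP or protect its clients, showed no common direction in Dehydrated against Control. Of the 4 among the members, 2 differences were positive and 2 negative there. In Rehydrated against Control 3 were positive and 1 negative, or 4 and 0 without Control M01, and none passed. Sdf2l1, a partner of BiP in complexes with DNAJB11, was the member with the smallest p after Fkbp11 in Dehydrated against Control. It had 6.69, 8.66 and 10.1 CPM in the lowest, median and highest Control library, 4.48 (M08), 7.22 and 8.01 in Dehydrated, and 6.57, 7.69 and 12.3 (M05) in Rehydrated. None of the 10 Dehydrated libraries lay above the Control median and 3 lay below the lowest Control library, yet the ranges overlapped. The difference was -0.26 ± 0.12 (SE) on the log2 scale, with an interval of -0.50 to -0.02 and an adjusted p of 0.735 in edgeR.

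Dnajc3 (p58IPK), which delivers unfolded clients to BiP and restrains PERK, had 40.3 (M01), 59.6 and 65.6 CPM in the lowest, median and highest Control library. The Dehydrated libraries had 54.8, 60.1 and 66.4 CPM and the Rehydrated ones 60.8, 65.4 and 72.7. All 9 Rehydrated libraries lay above the Control median and 4 above the highest Control library. Rehydrated against Control gave 0.18 ± 0.07 (SE) on the log2 scale, with an adjusted p of 0.581 in edgeR, and 0.13 without Control M01. Dnajb9 (ERdj4), a BiP cochaperone and known XBP1 target, had Control, Dehydrated and Rehydrated medians of 44.6, 48.2 and 48.2 CPM and a difference of 0.07 ± 0.07 (SE) in Dehydrated against Control. Dnajb11 and Dnajc10, further BiP partners, differed by -0.13 and 0.07, with adjusted p of 0.807 and 0.808. Without Control M01 the values were 0.03 for Dnajb9, -0.06 for Dnajb11 and 0.05 for Dnajc10.

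The lectin chaperones calnexin and calreticulin did not pass either. Canx had 418 (M01), 642 and 717 CPM in the lowest, median and highest Control library, 605, 676 and 701 in Dehydrated, and 624.8, 689 and 799 in Rehydrated. Of the Rehydrated libraries 8 of 9 lay above the Control median. Rehydrated against Control gave 0.16 ± 0.07 (SE) on the log2 scale (adjusted p = 0.593 in edgeR), and 0.11 without Control M01 (adjusted p = 0.565). Calr, the soluble counterpart of calnexin, had medians of 176, 175 and 172 CPM in Control, Dehydrated and Rehydrated, with ranges of 135 to 248 (M01), 132 to 206 and 147 to 227 (M04). Its groups overlapped throughout, and Dehydrated against Control gave -0.02 ± 0.09 (SE), or 0.03 without Control M01.

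The disulfide enzymes differed little between treatments. Pdia4, a thioredoxin-domain isomerase that ER stress is known to raise, had 67.3, 83.4 and 98.3 CPM in the lowest, median and highest Control library, 68.5, 83.7 and 99.6 in Dehydrated, and 71.9, 85.6 and 108 in Rehydrated. The 3 ranges nearly coincided, and the difference with dehydration was 0.03 ± 0.09 (SE) on the log2 scale, and 0.05 without Control M01. Creld2, an ER stress-inducible protein with isomerase activity, had medians of 47.9, 51.1 and 48.7 CPM and a difference of -0.03 ± 0.10 (SE), with its highest Control value of 72.9 in M01 and a difference of 0.05 without it. The other members of the role were Pdia6, P4hb, Txndc5 and Txndc11, thioredoxin-domain proteins, and Ero1a, the oxidase that recharges them. The 7 disulfide members gave 4 positive and 3 negative differences in Dehydrated against Control, 6 and 1 in Rehydrated against Control, and 7 and 0 in Rehydrated against Dehydrated, none of which passed. Without Control M01 these counts were 6 and 1, 7 and 0, and 7 and 0. The last 2 comparisons share the Rehydrated libraries.

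The prolyl isomerases other than Fkbp11 did not share its rise. Ppib (cyclophilin B), which works with the isomerases on secretory clients, had medians of 80.0, 80.7 and 80.8 CPM in Control, Dehydrated and Rehydrated. Fkbp2, a small ER isomerase of the same FK506-binding family as Fkbp11, had medians of 79.5, 82.1 and 82.6 CPM. The differences of Dehydrated from Control were -0.04 ± 0.09 (SE) for Ppib and -0.09 ± 0.12 for Fkbp2, with adjusted p of 0.930 and 0.874 in edgeR. Control M01 was far above the other Control libraries in both, at 139 CPM against 68.1 to 90.8 for Ppib and 173 against 67.2 to 94.5 for Fkbp2. Without that library the signs turned, to 0.06 for Ppib and 0.07 for Fkbp2, with adjusted p of 0.981 and 0.978.

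Transcripts of the stress sensors and of XBP1 did not pass the test. Ern1 (IRE1, the kinase and RNase that splices Xbp1 messenger) had 4.47 (M01), 13.6 and 18.9 CPM in the lowest, median and highest Control library, 12.7, 13.8 and 18.1 in Dehydrated, and 11.5, 15.2 and 17.7 in Rehydrated. Eif2ak3 (PERK, the kinase that slows translation) had 30.1 (M01), 44.1 and 51.4 CPM in Control libraries, 35.5, 40.4 and 48.1 in Dehydrated ones, and 38.2, 40.0 and 44.8 in Rehydrated ones. Atf6, the sensor that is cut to a transcription factor, had 11.5 (M01), 30.4 and 35.8 CPM in Control libraries, 24.7, 32.4 and 36.9 in Dehydrated ones, and 20.9, 30.1 and 35.5 in Rehydrated ones. Apart from M01, the Control libraries of all 3 sensors overlapped the other groups. In Dehydrated against Control the differences were 0.07 ± 0.14 (SE) for Ern1, -0.07 ± 0.07 for Eif2ak3 and 0.10 ± 0.13 for Atf6, and -0.0079 ± 0.06 for Atf6b, a relative of ATF6. Without Control M01 they were -0.02 for Ern1, -0.11 for Eif2ak3, 0.02 for Atf6 and 0.0048 for Atf6b, so Ern1 and Atf6b turned sign.

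Xbp1 (ENSJJAG00000028706, chromosome 13, 8914981 to 8922499, minus strand) had 65.8, 80.1 and 105 CPM in the lowest, median and highest Control library. It had 60.0, 77.2 and 93.7 CPM in Dehydrated and 63.3, 77.3 and 115 (F05) in Rehydrated. The ranges overlapped, and the difference of Dehydrated from Control was -0.10 ± 0.10 (SE), with an interval of -0.30 to 0.09 and an adjusted p of 0.834 in edgeR. Gene counts add the spliced and unspliced forms of Xbp1, so the splicing that activates XBP1 was not measured. Cleavage of ATF6 and phosphorylation of PERK are events of the protein and were not measured either.

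Manf, a small ER-resident and secreted factor with neurotrophic activity, had 32.2, 41.6 and 62.4 (M01) CPM in the lowest, median and highest Control library. The Dehydrated libraries ran from 35.7 to 46.1 CPM (median 43.3) and the Rehydrated ones from 41.8 to 56.0 (48.3). All 9 Rehydrated libraries lay above the Control median. Dehydrated against Control gave -0.04 ± 0.10 (SE) on the log2 scale and Rehydrated against Control 0.12 ± 0.11, with adjusted p of 0.930 and 0.788 in edgeR. Without Control M01 these were 0.02 and 0.19, with adjusted p of 0.998 and 0.646.

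Members of ER-associated degradation, the route that draws misfolded proteins out of the ER for the proteasome, showed both signs. Of the 10 such members among the 30, 5 differences were positive and 5 negative in Dehydrated against Control (7 and 3 without Control M01), and 0 passed, with 2 at an unadjusted p under 0.05. Syvn1 (HRD1, the ubiquitin ligase of this route) had 61.5, 66.2 and 77.7 (M01) CPM in the lowest, median and highest Control library, 63.3, 72.5 and 81.6 in Dehydrated, and 67.7, 71.8 and 81.3 in Rehydrated. It lay above the Control median in 9 of 10 Dehydrated and 9 of 9 Rehydrated libraries, and the difference with dehydration was 0.12 ± 0.05 (SE) on the log2 scale, with an adjusted p of 0.747 in edgeR (0.14 and 0.584 without Control M01). Edem1, a lectin that marks glycoproteins for disposal, was the other of the 2 and is named for that reason, after its values were seen. It had medians of 19.1, 21.98 and 18.02 CPM and a difference of 0.29 ± 0.14 (SE), which was 0.21 without Control M01, where it stood at 7.14 CPM.

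Herpud1, a membrane protein of the HRD1 complex and a widely used stress reporter, had 49.02, 61.2 and 87.7 CPM in the lowest, median and highest Control library, 49.1, 58.2 and 72.4 in Dehydrated, and 48.7, 57.7 and 79.1 in Rehydrated. The ranges overlapped, with a difference of -0.13 ± 0.09 (SE) in Dehydrated against Control. Selenos, a selenoprotein that links the derlin channel to the VCP ATPase, was chosen after its values were seen, as the second smallest p among the genes named from RefSeq. It had 36.6, 41.0 and 63.2 (M01) CPM in Control libraries, 27.5, 35.1 and 47.7 in Dehydrated ones and 32.9, 39.8 and 49.8 in Rehydrated ones, and 6 of 10 Dehydrated libraries lay below the lowest Control library. The difference was -0.28 ± 0.10 (SE) on the log2 scale, with an interval of -0.48 to -0.08 and an adjusted p of 0.587 in edgeR, and -0.20 without Control M01 (adjusted p = 0.769).

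The 30 members were spread evenly around 0 in dehydration, and Control M01 set how evenly. In Dehydrated against Control 15 differences were positive and 15 negative, with a median of 0.0090 on the log2 scale and a range of -0.26 to 0.77, beside a median of -0.0030 over all tested genes. An unadjusted p under 0.05 was reached by 4 of them (Fkbp11, Sdf2l1, Syvn1 and Edem1), while 6.37% of all tested genes reached it. Without Control M01, 23 were positive and 7 negative, the median was 0.03 (0.0021 over all tested genes), 3 had an unadjusted p under 0.05 (5.74% of all tested genes) and Fkbp11 remained the only call among 17 genes called. No member, Fkbp11 included, had a Dehydrated range wholly apart from the Control range, and neither did any of the 17558 tested genes.

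**Figure D3:**
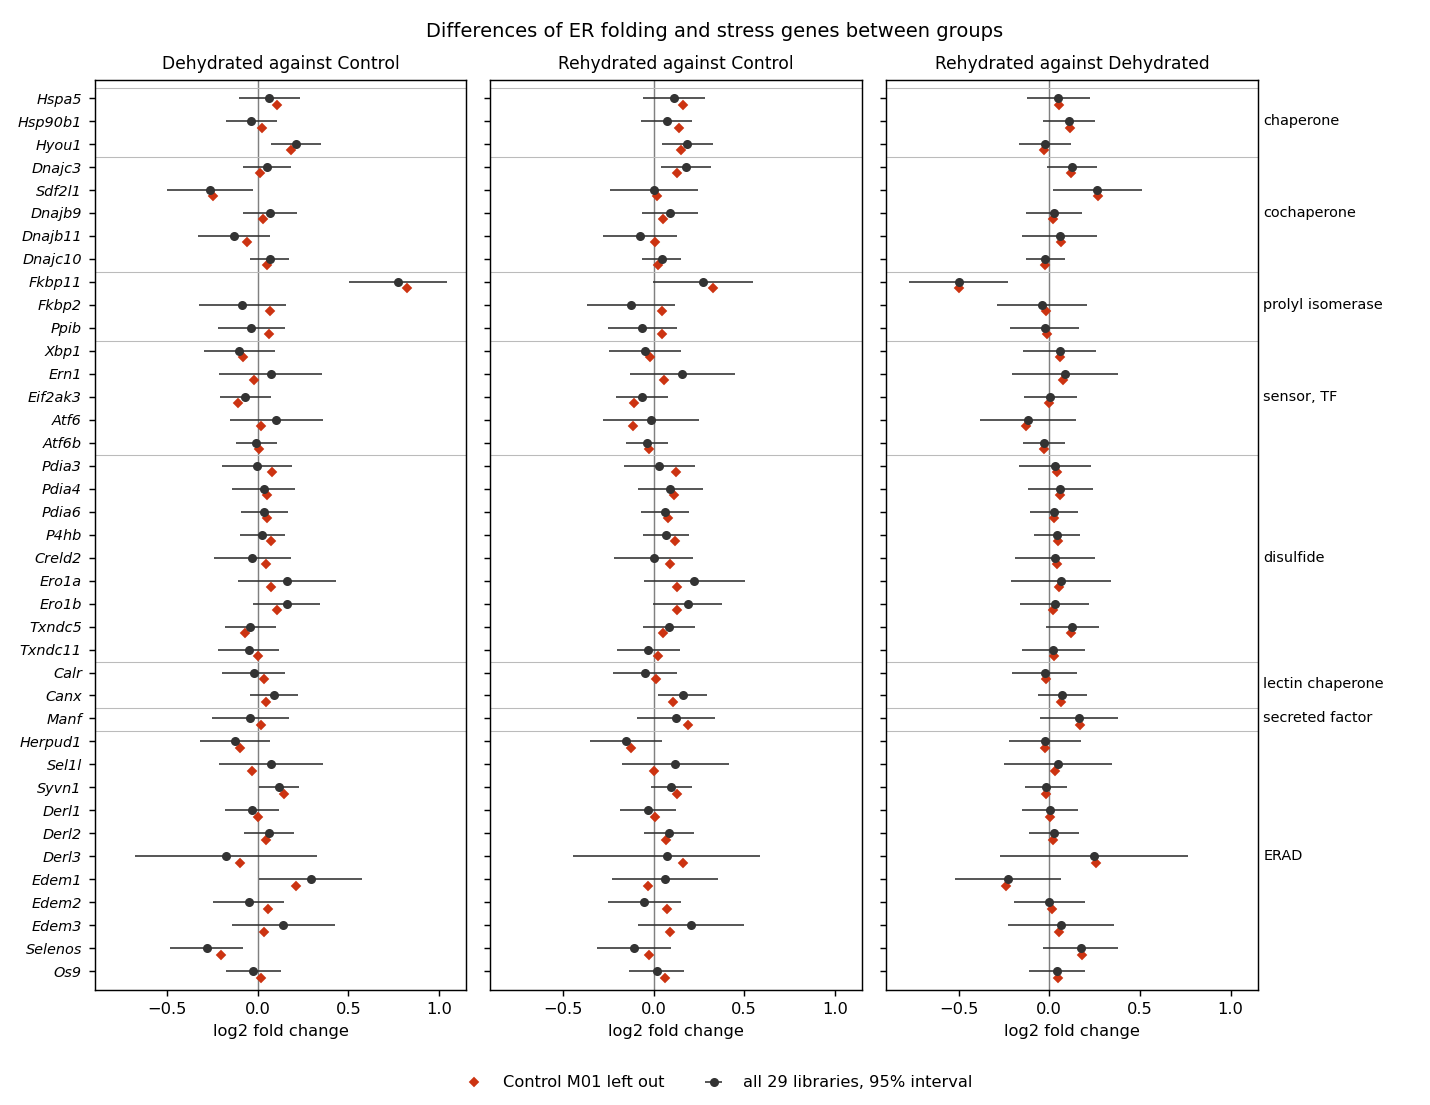
Log2 fold change with 95% interval for the 39 genes in the 3 treatment comparisons, grouped by role (TF, transcription factor; ERAD, ER-associated degradation; disulfide, enzymes of disulfide formation), with red diamonds for the value without Control M01. Fkbp11 at 0.77 in Dehydrated against Control is the 1 call, and the other members lie between -0.28 and 0.29 there.

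In Rehydrated against Control 0 of the 30 members passed in edgeR, beside 0% of all tested genes. The 9 genes named from RefSeq gave 0 calls as well, and DESeq2 and limma called none of the 30. Of the 30, 2 (Dnajc3 and Canx) had an unadjusted p under 0.05, as did 7.48% of all tested genes, 20 differences were positive and 10 negative, and the median was 0.06 on the log2 scale, beside 0.0030 over all tested genes. The lowest was -0.15 and the highest 0.27, that of Fkbp11. Without Control M01, 25 were positive and 5 negative, the median was 0.07 (0.0068 over all tested genes), and 7 had an unadjusted p under 0.05: Hspa5, Hsp90b1, Dnajc3, Fkbp11, P4hb, Canx and Syvn1. Of all tested genes 7.97% had such a p without that library, and none of the 7 passed after adjustment.

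In Rehydrated against Dehydrated 0 of the 30 members passed in edgeR, beside 0.0228% of all tested genes, and DESeq2 and limma called none of the 30. The 2 with an unadjusted p under 0.05 were Fkbp11, at -0.50, and Sdf2l1, at 0.26 on the log2 scale, while 3.88% of all tested genes had such a p. Without Control M01 5 of the 30 had one, beside 6.51% of all tested genes. The differences of Fkbp11 and Sdf2l1 had the sign opposite to those with dehydration, in a pair of comparisons that share the Dehydrated libraries. Of the 30 differences 20 were positive and 10 negative, with a median of 0.03, beside 0.0041 over all tested genes.

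Sex made no difference that passed. In female against male 0 of the 30 members were called in edgeR, beside 0.0342% of all tested genes, and DESeq2 and limma called 0 as well. Herpud1 at -0.20 and Txndc5 at 0.12 on the log2 scale had an unadjusted p under 0.05, as did 3.87% of all tested genes. The adjusted p was 0.993 for both. Without Control M01 only Herpud1 had such an unadjusted p, at -0.19, beside 4.04% of all tested genes. A difference between the sexes in the response to dehydration was called for 0 of the 30 members, beside 0% of all tested genes, and for 0 by DESeq2. Calr, at 0.39 ± 0.16 (SE), and Hspa5, at 0.35 ± 0.16, had an unadjusted p under 0.05 in that test, with adjusted p of 0.811 and 0.817. Of all tested genes 6.05% had such a p. Without Control M01 only Calr of the 30 had one, beside 5.03% of all tested genes.

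Manf, named from RefSeq and singled out after its values were seen, had the smallest p for such a difference, 0.62 ± 0.17 (SE) on the log2 scale, with p = 0.001 unadjusted and 0.811 adjusted in edgeR. Control females ran from 32.2 to 48.2 CPM (median 34.9, n = 5) and Control males from 38.4 to 62.4 (49.3, n = 5), whereas Dehydrated females ran from 41.5 to 46.1 (43.9, n = 6) and Dehydrated males from 35.7 to 43.6 (39.9, n = 4). The sexes thus had the opposite order in the 2 groups by their medians, with ranges that overlapped in both. In Control, F03 (38.4 CPM, labelled male) and M05 (48.2 CPM, labelled female) carry a label unlike their name letter. By name letter the Control values did not overlap, at 32.2 to 38.4 CPM for F and 44.7 to 62.4 for M. The Dehydrated ones did, at 41.5 to 46.1 and 35.7 to 44.8. The tests of sex were not repeated with the name letter in place of the label. Without Control M01 the value was 0.55 for Manf, 0.29 for Calr and 0.27 for Hspa5, with adjusted p of 0.946, 0.977 and 0.999.

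The members varied little within a group, and single libraries set much of the spread that there was. The median coefficient of variation over the 30 members was 15.003% in Control, 9.30% in Dehydrated and 10.1% in Rehydrated, and 9.17% in Control without M01. Derl3, the member with the lowest counts, varied most in each group, by 44.5%, 28.5% and 25.6%. Of the 30 members Control M01 was the highest of all 29 libraries in 9 and the lowest in 10.

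Its low values included several degradation and sensor transcripts. Sel1l, the scaffold of the HRD1 complex, had 37.9 CPM in M01 against a Control median of 147, and Edem3, a mannosidase relative of Edem1, had 14.7 against 63.3. Ero1a had 12.8 against 36.7. Its high values included Ppib, Pdia3 at 294 CPM against 180, and Edem2 at 65.7 against 36.3. Among the Dehydrated libraries, M08 and M02 were each the lowest in 8 of the 30 members and F05 the highest in 8, and among the Rehydrated ones M04 and M05 were each the highest in 8.

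**Figure D4:**
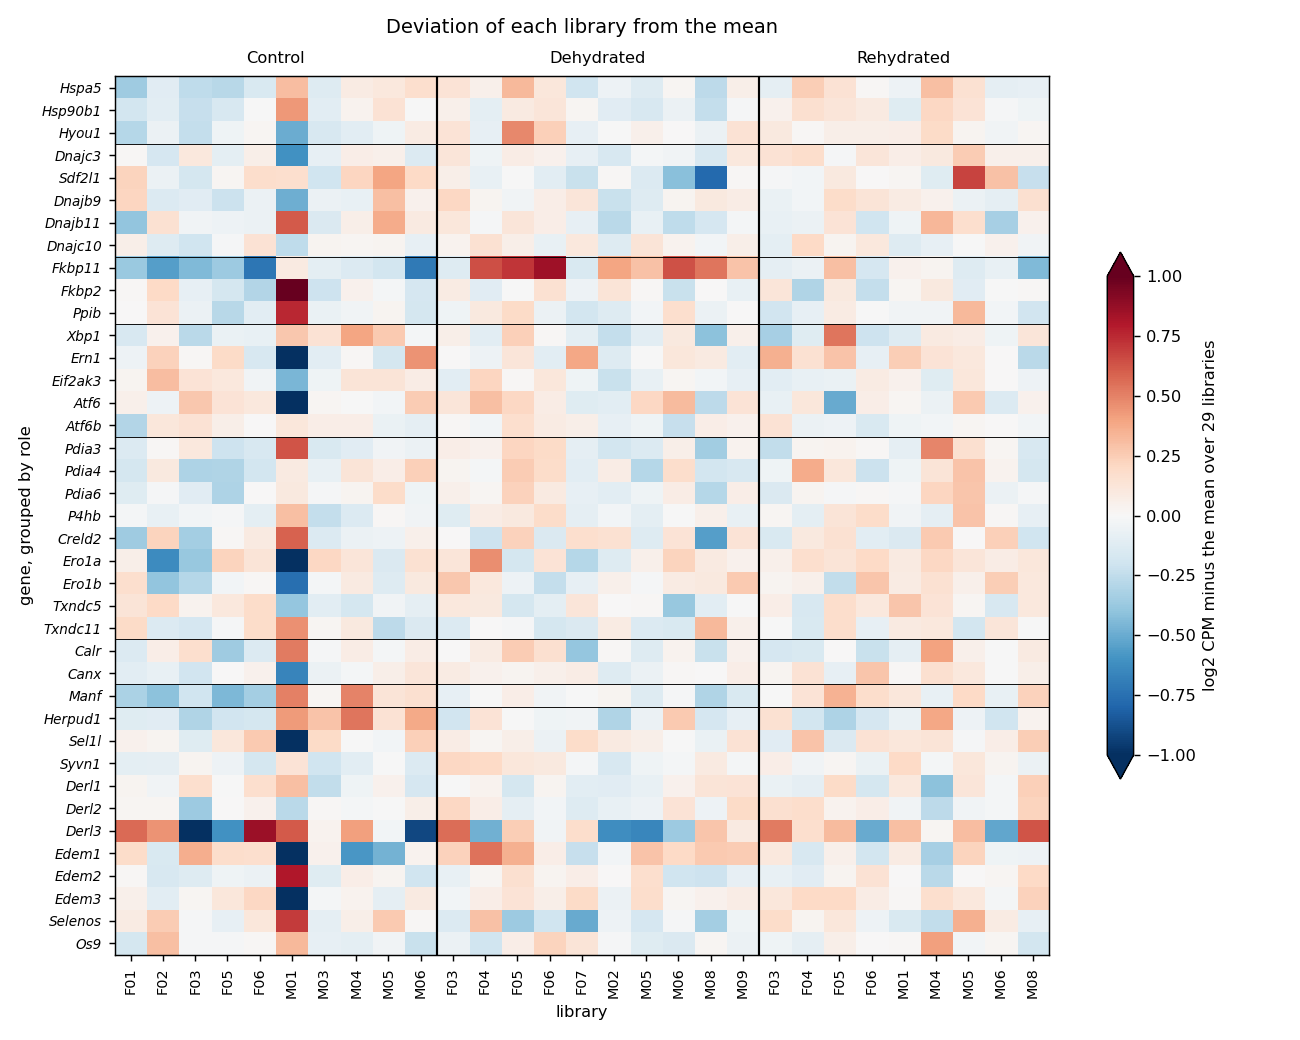
Heatmap of the 39 genes (rows, by role) in the 29 libraries (columns, by group), as log2 CPM minus the gene's mean over all libraries, with colours limited at -1 and 1. Fkbp11 is above its mean in 8 of the 10 Dehydrated columns, and the column of Control M01 is the highest of all libraries for 9 of the 30 members and the lowest for 10.

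Within the Dehydrated group, libraries with more Avp had more Fkbp11, a relation whose call rests on 2 libraries. Avp had 359, 836 and 2423 CPM in the lowest, median and highest Control library, 1512 (F07), 3188 and 5179 (F05) in Dehydrated, and 201 (M08), 2305 and 3268 in Rehydrated. It rose 3.50-fold in Dehydrated against Control (1.81 on the log2 scale, adjusted p = 0.0388 in edgeR), a call near the threshold that was kept in 10 of 29 fits that left out a library. Without Control M01 the value was 1.84 with an adjusted p of 0.0879. The call was also lost with no filter on low counts (adjusted p = 0.0691), with the name letter in place of sex (0.0507), with a replicate block (0.0853) and in each sex alone, while DESeq2 gave an adjusted p of 4.66e-05. Over the 10 Dehydrated libraries, Pearson's r of log2 CPM between Avp and Fkbp11 was 0.88 (permutation p = 0.00106, adjusted p = 0.0127 over the 12 relations computed) and Spearman's rho was 0.85 (permutation p = 0.00319, adjusted p = 0.0383). Without F03 and F07, the pair farthest from the Avp median, r was 0.67 (permutation p = 0.0725, adjusted p = 0.290). Those are also the 2 libraries in which Fkbp11 overlapped Control.

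In Control the same r was -0.09 (permutation p = 0.797, adjusted p = 0.797) and rho was -0.09, and r was -0.19 without M01. In Rehydrated r was 0.42 (permutation p = 0.244, adjusted p = 0.435) and rho was -0.22, with Rehydrated M08 low in both genes. Each name letter held at most 5 libraries of a group, too few for a value within it. No pooled value was computed, since the medians of Avp differed between the groups, though their ranges overlapped.

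Hspa5 in the Dehydrated group had r = 0.65 with Avp (permutation p = 0.0430, adjusted p = 0.258) and rho = 0.58 (permutation p = 0.0891, adjusted p = 0.357), and r = 0.92 without F03 and F07 (permutation p = 0.00169, adjusted p = 0.0202). Xbp1 there had r = 0.44 (permutation p = 0.206, adjusted p = 0.435) and rho = 0.39 (permutation p = 0.263, adjusted p = 0.630), and Sdf2l1 had r = 0.23 (permutation p = 0.537, adjusted p = 0.777) and rho = 0.14 (permutation p = 0.711, adjusted p = 0.946). Without the same pair r was 0.80 for Xbp1 (adjusted p = 0.0982) and 0.57 for Sdf2l1 (adjusted p = 0.421), by permutation. For Hspa5, Xbp1 and Sdf2l1 none of the 6 relations in Control and Rehydrated had an adjusted p under 0.05.

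**Figure D5:**
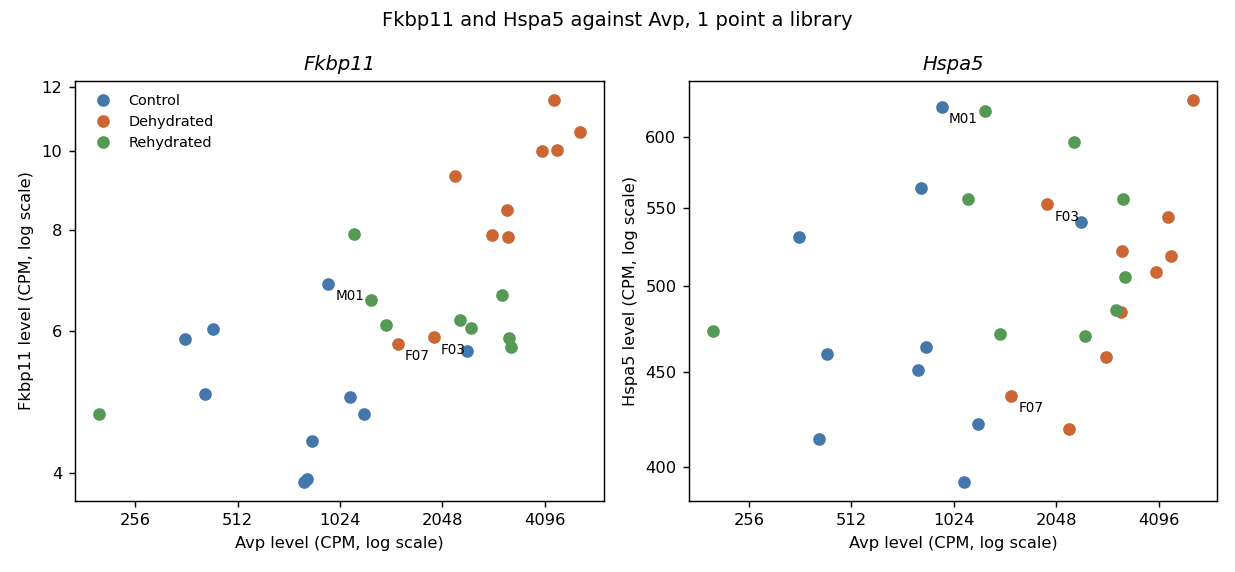
Fkbp11 and Hspa5 (CPM, log axes) against Avp (CPM, log axis) in each library, coloured by group. The 2 Dehydrated libraries lowest in Fkbp11, F03 at 5.89 and F07 at 5.78 CPM, are labelled, as is Control M01.

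Beyond the members, 8 lists of related ER genes gave 1 call in Dehydrated against Control among 115 tested genes, that of Atf5. Of all tested genes 0.125% were called there. Atf5, a stress-induced transcription factor downstream of PERK and other kinases of the integrated stress response, had 11.9, 15.95 and 23.9 (M01) CPM in the lowest, median and highest Control library. It had 16.6, 27.1 and 43.4 (F05) CPM in Dehydrated and 12.3, 17.9 and 20.2 in Rehydrated. All 10 Dehydrated libraries lay above the Control median and 7 above the highest Control library, and no Rehydrated library did the latter. Dehydrated against Control gave 0.82 ± 0.16 (SE) on the log2 scale, a 1.77-fold rise with an adjusted p of 0.0226 in edgeR, and 0.89 without Control M01 (adjusted p = 0.00764). The call was kept in 23 of 29 fits that left out a library, and lost, with adjusted p of at most 0.0646, without Control F01, F05, M03 or M05 or without Dehydrated F05 or M06. It was also lost when only the groups compared were fitted (adjusted p = 0.0902) and in females (0.665) and males (0.634) alone. Rehydrated against Dehydrated gave -0.81 ± 0.16 (SE), with an adjusted p of 0.0930 in edgeR and 0.00246 in DESeq2, and Atf4, its neighbour in the pathway, gave -0.03 (adjusted p = 0.941) in Dehydrated against Control.

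Of the list of the PERK and ATF4 arm, 1 of 11 tested genes was called higher with dehydration and 0 lower, with a median of 0.03 on the log2 scale. The ATF6 and CREB3 factors and proteases gave 0 of 6 (median 0.05), the translocon and signal peptidase 0 of 19 (-0.02) and N-glycosylation with glycan quality control 0 of 14 (0.03). Other folding enzymes gave 0 of 24 (0.0094), other degradation factors 0 of 20 (0.03), other ufmylation genes 0 of 6 (-0.06) and ER calcium and survival genes 0 of 15 (-0.03). Over the 8 lists, 8 of 115 tested genes reached an unadjusted p under 0.05 in edgeR, beside 6.37% of all tested genes. The lists named after that of the PERK and ATF4 arm held 0, 0, 1, 2, 2, 0 and 2 of them, in the same order. None of the 8 lists had a call in either comparison with the Rehydrated group in edgeR. In Rehydrated against Control 12 of the 115 genes had an unadjusted p under 0.05, beside 7.48% of all tested genes. In Rehydrated against Dehydrated 6 had one, beside 3.88%.

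The genes with the smallest p in those lists in Dehydrated against Control, none of which passed beside Atf5, give the scale of the differences. Sesn2, a stress-induced regulator of metabolism, differed by -0.22 and Mbtps2, the protease that makes the last cut in ATF6, by 0.16. The translocon partner Sec62 and the signal peptidase subunit Sec11a each differed by -0.14. In N-glycosylation, Mogs, the glucosidase that starts glycan trimming, differed by 0.14 and Rpn2, a subunit of the transferase, by 0.11. Tmx1, a membrane-bound thioredoxin relative, differed by 0.17 and Fkbp10, an isomerase of collagen folding, by -0.38. In degradation, the VCP cofactor Nploc4 differed by 0.23 and the conjugating enzyme Ube2j1 by 0.20. The ufmylation factors Ddrgk1 and Ufc1 differed by -0.18 and -0.11. The calcium-binding Rcn1 differed by -0.35 and Atp2a3, a calcium pump of the ER, by 0.67 ± 0.23 (SE), with adjusted p of 0.473 and 0.566.

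Levels of markers of several cell types are given beside the rise of Fkbp11. Of the 12 magnocellular markers, 3 were called higher in Dehydrated against Control (Avp, Pdyn and Caprin2), beside 0.125% of all tested genes called in either direction. Without Control M01 there were 2, Avp being lost, and 7 of the 12 differences were positive and 5 negative, with a median of 0.07 on the log2 scale. The summed level of the 12 ran from 2504 to 5505 CPM in Control, 4147 to 10338 in Dehydrated and 2187 to 7423 in Rehydrated. Its medians were 3724, 6717 and 5150 CPM, and those of Avp, which is part of the sum, were 836, 3188 and 2305. All 9 oligodendrocyte markers had negative differences, with a median of -0.29 on the log2 scale and 0 calls, and sums of 2640 to 6605, 2411 to 6364 and 1163 to 8236 CPM. All 3 tested blood markers were also negative with 0 calls, and their sums were 114 to 807, 31.8 to 188 and 34.5 to 1002 CPM. The part of these in the difference of Fkbp11 was not tested.

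Plasma and B cells, which carry much Fkbp11, had 7 of 10 listed markers in the count table, and of the 5 tested 0 were called, with 0 at an unadjusted p under 0.05. Their sum ran from 7.61 to 15.5 CPM in Control, 6.73 to 55.2 (F05) in Dehydrated and 7.16 to 38.3 (M04) in Rehydrated. Jchain, the joining chain of secreted antibody, made up most of the high value in Dehydrated F05, at 41.5 CPM against a group median of 0.997, and Cd79a, part of the B cell receptor, had a median of 0 in Control and in Dehydrated. The part of these cells in the difference of Fkbp11 was not tested.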

How the data were processed

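RNA-seq counts of 29 libraries were read from the deposited table. Per the file header, these are whole fragment counts per gene that the authors made with featureCounts 1.6.2, counting read pairs over Ensembl genes of mJacJac1 and giving no strand option, so reads of overlapping or antisense genes cannot be told apart. Per the submitters' processing notes, FastQC, featureCounts and DESeq2 were used. The names of the count columns carry the word Rsubread, a package that includes an aligner; its version and settings are not given in the sources used here. For each treatment against Control, the authors deposited log2 fold changes, their SEs and p-values of 17583 genes. Their further 28 columns per table with values per library were not used (56 in all).

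The tests used edgeR 4.0.16 under R 4.3.3: filterByExpr on the group left 17558 genes (11612 were removed, with 0.126% of counts), TMM scaled the libraries, and a robust quasi-likelihood model took group and sex as terms, with every library in 1 fit (25 residual degrees of freedom). Adjustment was by Benjamini-Hochberg over all tested genes, with a threshold of 0.05. The difference between the sexes in the response used a model with group and sex combined. Standard errors hold counting noise and the spread between libraries together. Counts of the 126 pairs of libraries within groups differed by more than sampling noise (chi-square per degree of freedom at least 8.52), so none was a duplicate. Correlations and exact permutation tests used Python 3.11.15, numpy 2.4.6, scipy 1.17.1 and pandas 2.3.3, with 100000 permutations for 10 libraries and all of them for 9, and figures used matplotlib 3.10.9. The model was tested on simulated data first.

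The authors' tables name 9699 genes. RefSeq names were given to 5594 more where each gene was the other's best match with at least 0.5 of both spans shared, and the names matched for 96.57% of the 8787 genes named by both. Members, lists and tests were chosen with earlier results of these data known. Named are members past the threshold, the 3 with the smallest p per treatment comparison, 14 reference members, and in each further list the genes past the threshold and the 2 with the smallest p. Hyou1, Selenos, Edem1, the members with extreme values in Control M01, and the remaining members named by role were added after values were seen. Ddit3 matched 2 genes and was left out, Crebzf, Ufsp1 and Casp12 matched none, and Creb3l3 and Creb3l4 were filtered. Promoter and protein sequences were not analysed here. The alternatives were DESeq2 1.42.0 (also without Control M01), other size factors, no filter, only the groups compared, no sex term, the name letter, a replicate block, limma 3.58.1 with quality weights, each sex alone and each library left out. The permutation tests of Fkbp11 within name letter or sex label were chosen after seeing the data. So were the alternatives for Atf5, Avp, the genes named from RefSeq and the sex difference in the response.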

Additional observations from a re-analysis of the deposited data

Results flagged for a closer look

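In 13 of 57 groups of a named gene, 1 library stood farther from the rest than Dixon's 95% limit allows, where chance gives about 1 in 20, and 8 of the 13 were Control M01. That library was low for Ern1 at 4.47 CPM (the other Control libraries 12.3 to 18.9), Eif2ak3 at 30.1 (40.1 to 51.4), Atf6 at 11.5 (28.6 to 35.8), Dnajc3 at 40.3 (54.4 to 65.6) and Canx at 418 (579 to 717). It was high for Hsp90b1 at 879 CPM (555 to 718), Calr at 248 (135 to 194) and Selenos at 63.2 (36.6 to 46.7).

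Outside Control, Sdf2l1 was high in Rehydrated M05 at 12.3 CPM (others of the group 6.57 to 9.40), Xbp1 in Rehydrated F05 at 115 (63.3 to 86.6) and Calr in Rehydrated M04 at 227 (147 to 183). Hyou1 was high in Dehydrated F05 at 334 CPM (225 to 282) and Ern1 in Dehydrated F07 at 18.1 (12.7 to 15.03). Dehydrated F05 was also the library with the most Avp and the most Jchain of its group. Fkbp11 had no library beyond the limit in any group.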

How the results depend on the processing

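The call of Fkbp11 in Dehydrated against Control held under 8 of 11 alternatives to the whole fit and in 29 of 29 fits that left out a library, where it ran from 0.72 to 0.82 on the log2 scale with adjusted p of 0.00103 to 0.0199. It was lost, leaving 0 members called, with the replicate block (0.95, adjusted p = 0.0527, 12 genes called in all), in females alone (0.87, adjusted p = 0.665, 0 genes called in all) and in males alone (0.68, adjusted p = 0.438, 0 genes called in all), fits that have fewer libraries or fewer residual degrees of freedom. The labels do not say that the numbers pair the libraries. Over 19 same-named pairs the correlation of deviations ran from -0.115 to 0.11, and 2 of 23 libraries matched a namesake best. Such values cannot decide whether namesakes shared a litter or a day. In the other comparisons 0 members were called under each alternative run. Over all genes, leaving out a library gave 10 (Control F01) to 27 (Dehydrated F07) calls in Dehydrated against Control, 0 to 2 (Rehydrated M05) in Rehydrated against Control and 2 to 9 (Dehydrated F07) in Rehydrated against Dehydrated. DESeq2 called 39, 18 and 13 genes in these, 40, 3 and 16 without Control M01, and fits of only the groups compared 11, 0 and 1. With no filter 16 genes differed between the sexes, against 6. A difference within 1 SE of 0 was taken to have no direction: of 2410 single-gene values 95 changed sign, 1 of them with both values beyond 1 SE, namely Manf in Rehydrated against Control at -0.14 in males alone (0.12 in all libraries), and the cause was not tested. The correlation of Avp with Fkbp11 in Dehydrated fell below the threshold without the 2 libraries farthest in Avp (0.67, adjusted p = 0.290), and that with Hspa5 passed it there (0.92, adjusted p = 0.0202). Near 5 CPM, Fkbp11 rests on 59 to 108 counts per Control library, so counting noise is a visible part of its spread, whereas Hspa5 and Hsp90b1 rest on far more.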
